A study of Mus musculus with 13 samples.

Results

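The skeletal muscle contractile genes described here are 40 genes picked for their known role in the sarcomere, the calcium stores or the fuel supply of skeletal muscle, out of 19938 genes with a probe set of their own on the array. The rule that lists them names their known function and no measured value, but they were chosen with earlier results of these data known. All 40 had such a probe set, and 39 of them were among the 14953 genes bright enough to be tested. They were followed through whole back skin of male C57Bl6 mice at postnatal day 46, when hair follicles rest in telogen, on 13 whole-transcript arrays taken at 4 h intervals with lights on for 12 h and off for 12 h and chow freely available. Each array carried the pooled RNA of 3 mice, so the spread between arrays is a spread between pools and the spread between single mice was not measured. Time of day is given as zeitgeber time (ZT), the hours since lights came on at ZT0, with lights off at ZT12. The 6 dark arrays were ZT14, ZT18 and ZT22 on 2 successive days, and the 7 light arrays were ZT2 on 3 days and ZT6 and ZT10 on 2 days. Day 2 (hours 26 to 46) and day 1 (hours 2 to 22) had 6 arrays each, and the last ZT2 array (hour 50) belonged to neither.

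In a sarcomere, the contractile unit of striated muscle, myosin thick filaments pull on actin thin filaments that are anchored at Z-discs, while titin spans the unit and the M-band ties thick filaments together. A nerve impulse opens the ryanodine receptor of the sarcoplasmic reticulum, calcium binds troponin C and frees actin for myosin, and a calcium pump then refills the store. Mouse back skin is underlain by a thin sheet of striated muscle, the panniculus carnosus, which is excised with the skin. The labels do not give how much of that sheet each piece of skin carried.

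The values were deposited probe set intensities, which measure brightness on a linear scale, and their medians ranged from 353.8 to 392.8 over the arrays. Correlations between arrays ranged from 0.886 to 0.992. Heart markers Myh6, Myl7 and Nppa and the muscle precursor factors Myf5 and Myog fell below the brightness filter, which left out the dimmest 25% of genes. Other genes of the same lists were above it, 5 of 8 for heart and 6 of 8 measured for muscle precursors and factors. Among them were Tnnt2 of the heart list (541 to 695) and the muscle factor Myod1 (323 to 561). The slow fibre myosin Myh7 read 157 to 341. Some arrays stood apart in other tissues' genes. At ZT22 on day 2 (replicate 2) the mean of 7 hair shaft genes was 2.36 above their average in log2, against -0.63 to 0.05 on the other arrays. That array also had the lowest mean of the muscle genes. At ZT2 on day 1 (replicate 1) the fibroblast mean was -0.41, against -0.09 to 0.13 on the other arrays, and the immune mean -0.40, against -0.11 to 0.19. The mean of 5 liver genes ranged widely, from -2.21 at ZT22 replicate 2 to 1.16 at ZT10 replicate 1, with an r of 0.29 with the mean of the muscle genes over the 13 arrays. The part of these tissues in the muscle values was not tested. Leaving out ZT2 replicate 1 left the same 3 genes called in the 24 h test described next. The labels name no batch.

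Intensities were analysed as log2(intensity + 16), and the fold changes below are on that scale. The first question was whether the muscle genes followed a 24 h curve, fitted as a cosine and a sine over the 13 arrays. Of the 39 genes, 3 did: Mylk4, a member of the myosin light chain kinase family, Lmod2, a leiomodin that nucleates actin and lengthens thin filaments, and Tcap, the telethonin that caps titin at the Z-disc. All 3 had their fitted peak in the last hours of light and their lowest mean at ZT22. Among all 14953 genes, 2.13% passed the same test, so that 3 of 39 stands against that background. In the same test 12 of 12 clock and clock output genes passed.

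Mylk4 read 1109, 1419 and 1535 at ZT2, 2917 and 2384 at ZT6, 3069 and 3927 at ZT10, 4569 and 4180.0 at ZT14, 1333 and 2832 at ZT18, and 1432 and 1131 at ZT22. Both ZT14 arrays were above every other array, and the ZT2 and ZT22 arrays and the first ZT18 array were all below the ZT6 arrays. The fitted peak-to-trough difference was 1.82 ± 0.23 in log2 (SE, 13 arrays), a fold of 3.53, with the peak at 11.6 ± 0.49 h (limma F test, adjusted p = 0.0027). Fitted separately, day 1 and day 2 gave peaks at 11.1 and 12.2 h.

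Lmod2 read 1257, 1739 and 1985 at ZT2, 2456 and 2121 at ZT6, 2302 and 3206 at ZT10, 2534 and 2642 at ZT14, 960.5 and 1721 at ZT18, and 1210.2 and 1038 at ZT22. The arrays at ZT6, ZT10 and ZT14 were all above the arrays at the other times. The difference was 1.33 ± 0.22 in log2, a fold of 2.51, with the peak at 9.65 ± 0.60 h (limma, adjusted p = 0.0164). The peaks of the separate days lay at 9.47 h on day 1 and 10.5 h on day 2. Without the second ZT10 array, the adjusted p of Lmod2 was 0.0525.

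Tcap read 493, 522 and 542 at ZT2, 891 and 696 at ZT6, 744 and 956 at ZT10, 967 and 1003 at ZT14, 295 and 626 at ZT18, and 424 and 284 at ZT22. As for Lmod2, every array from ZT6 to ZT14 was above every array of the remaining times, and the ZT2 arrays were close together. The difference was 1.39 ± 0.25 in log2, a fold of 2.63, with the peak at 10.0 ± 0.66 h (limma, adjusted p = 0.0269). The separate days gave peaks at 9.05 h on day 1 and 11.1 h on day 2. Leaving out 1 array at a time took its adjusted p to 0.0538 without ZT6 replicate 1, 0.0579 without ZT10 replicate 2, 0.0627 and 0.0588 without either ZT14 array, and 0.0507 without ZT22 replicate 2, the array with the high hair shaft genes. The call of Tcap was thus lost in 5 of these fits, that of Lmod2 in 1 and that of Mylk4 in none. With day as a block Tcap had an adjusted p of 0.0545, and with time of day as a factor in place of the curve none of the 3 passed, at 0.065 for Mylk4, 0.196 for Lmod2 and 0.174 for Tcap (limma).

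**Figure D1:**
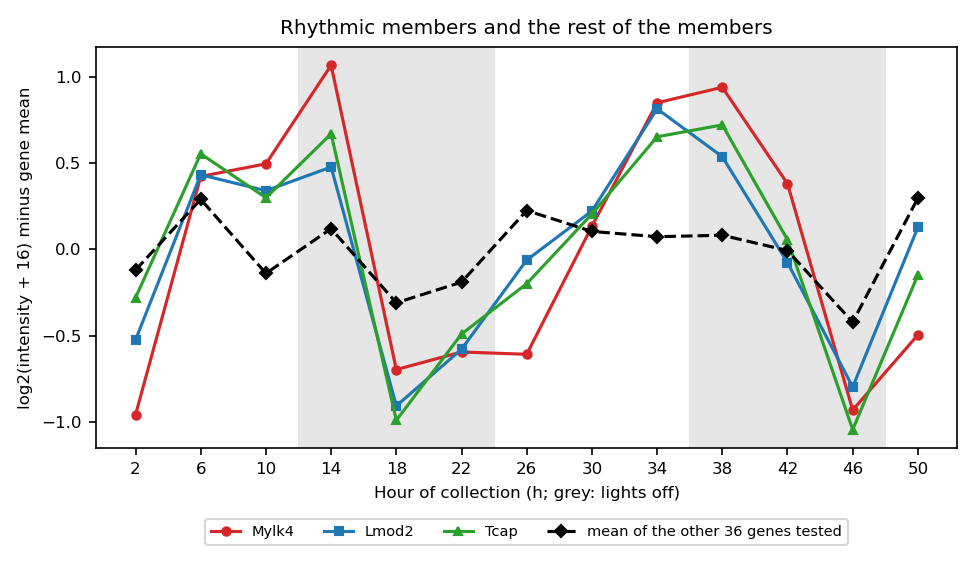
log2(intensity + 16) minus the gene's own mean (vertical axis) for Mylk4, Lmod2, Tcap and the mean of the other 36 genes tested, at each hour of collection (horizontal axis, h), with lights-off hours in grey and 1 array per point. The 3 lines reach their highest points at hours 6 to 14 and 34 to 38 and dip at hours 18 and 46, Mylk4 also at hour 2, and the dashed mean of the rest stays between -0.42 and 0.30.

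The remaining 36 genes did not pass the test, and their fitted differences ranged from 0.13 for Myl1 to 0.91 for Myoz2 in log2, with a median of 0.37. Over all 39 the median was 0.38, against 0.19 over all genes tested, and 10 of the 39 reached 0.5 or more, against 5.6% of all genes. At an unadjusted p under 0.05, 12 of the 39 passed, against 18.5% of all genes. Fitted peaks lay in the light phase for all 39, from 3.87 h for Tnnc2 to 11.6 h for Mylk4 with a median of 7.38 h. Of these, 34 fell from ZT6 to ZT10, where 18% of all genes had theirs, and this count rests on fits of which 36 did not pass. These 39 peak times are not independent, since the genes moved together on the arrays, as the correlations between them show.

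**Figure D2:**
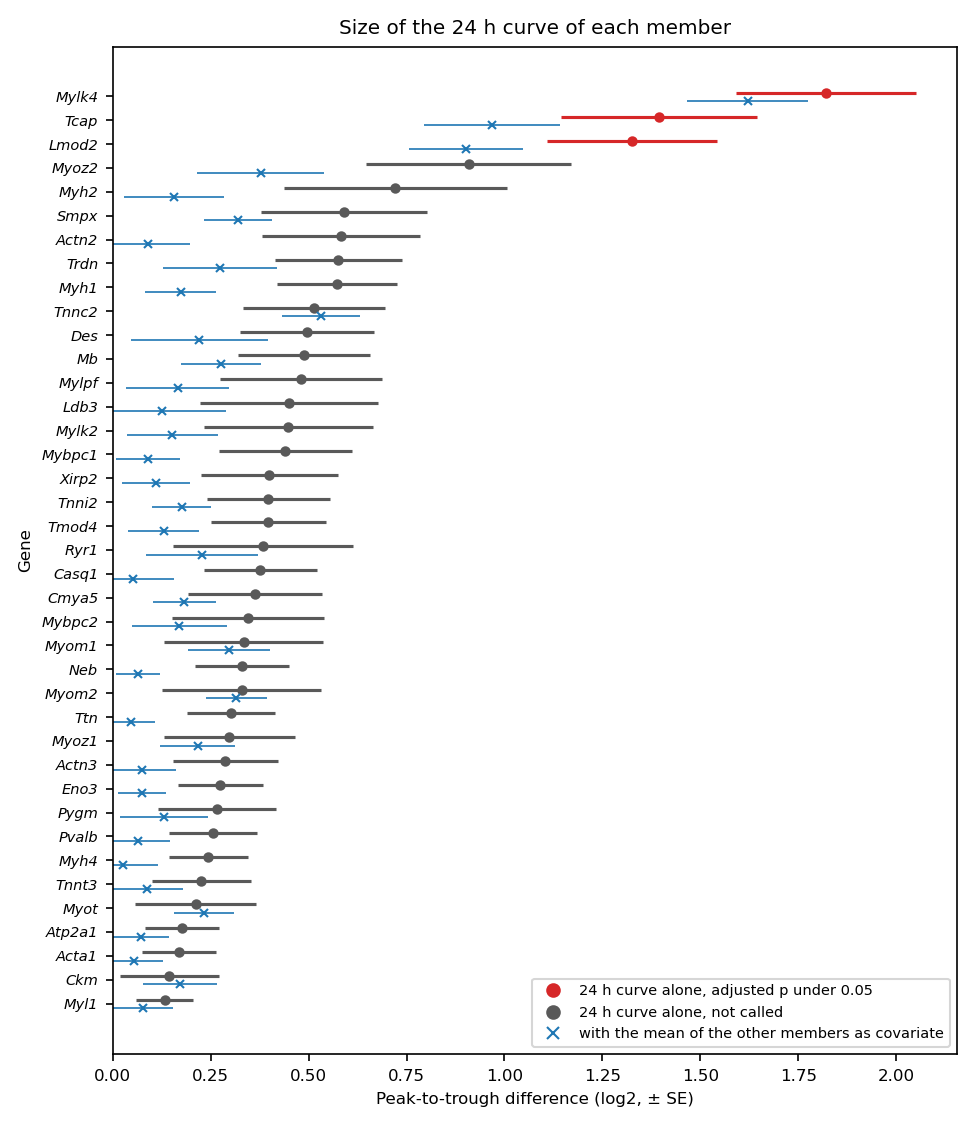
Fitted peak-to-trough difference in log2 (horizontal axis, ± SE) of each of the 39 genes (vertical axis), from the 24 h curve alone (dots, red for an adjusted p under 0.05 and grey otherwise) and with the mean of the other genes as a covariate (blue crosses). Mylk4, Lmod2 and Tcap are the 3 red dots at 1.82, 1.33 and 1.39, and most crosses lie left of the same gene's dot.

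Thick filament and M-band genes numbered 9, and none passed, with fitted differences of 0.13 to 0.72 and adjusted p of 0.139 to 0.524 (limma). They were the fast myosin heavy chains Myh1, Myh2 and Myh4, the light chains Myl1 and Mylpf, the myosin binding proteins Mybpc1 and Mybpc2 and the myomesins Myom1 and Myom2, which crosslink thick filaments at the M-band. Heavy chain genes are close in sequence, and whether their probe sets read each other's transcripts was not tested. Myh1, the heavy chain of type IIx fibres, read 4885, 6356 and 6797 at ZT2, 6879.7 and 5724 at ZT6, 5426 and 6126 at ZT10, 5713 and 6193 at ZT14, 4157 and 4809.8 at ZT18, and 4362 and 3794 at ZT22. All ZT18 and ZT22 arrays were below all others, the lowest ZT2 array lying just above them. Its fitted difference was 0.57 ± 0.15 in log2 with an adjusted p of 0.139 (limma). Myh2, the heavy chain of type IIa fibres, read 2087, 3320.1 and 3345 at ZT2, 3499 and 2756 at ZT6, 1899.6 and 3467 at ZT10, 2721 and 2877 at ZT14, 1393 and 2467 at ZT18, and 2288 and 1462 at ZT22. The ZT10 arrays of Myh2 were among its lowest and its highest, and its fitted difference of 0.72 ± 0.29 had an adjusted p of 0.303 (limma). Myh4, the heavy chain of type IIb fibres, ranged from 7698 to 11029.9 and Myl1 from 10022.5 to 12097.

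Thin filament genes numbered 7, and Lmod2 alone passed. The others were the skeletal actin Acta1, the fast troponin subunits Tnnc2, Tnni2 and Tnnt3, the thin filament ruler nebulin (Neb) and the end-capping tropomodulin Tmod4, with fitted differences of 0.17 for Acta1 to 0.51 for Tnnc2. Tnnc2, the calcium sensor of fast fibres, read 5156, 6759.6 and 7038 at ZT2, 5382 and 5859 at ZT6, 3888 and 4655 at ZT10, 4865 and 4471 at ZT14, 3375 and 5394 at ZT18, and 4468 and 3926 at ZT22. Its ZT2 and ZT6 arrays were high and its ZT10 arrays low, unlike those of Lmod2, although the second ZT18 array overlapped the high ones. Its difference was 0.51 ± 0.18 in log2, with the earliest fitted peak of the 39 genes at 3.87 ± 1.41 h and an adjusted p of 0.260 (limma).

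The Z-disc, titin and intermediate filament genes numbered 12, and Tcap alone passed. This group held the alpha-actinins Actn2 and Actn3 that crosslink actin, Ldb3, myotilin (Myot), Myoz1 and Myoz2 that bind calcineurin, titin (Ttn), Cmya5, desmin (Des), Xirp2 and Smpx. Their fitted differences ran from 0.21 for Myot to 0.91 for Myoz2, apart from Tcap. Myoz2 read 706, 916 and 857 at ZT2, 918 and 731 at ZT6, 505 and 912 at ZT10, 608 and 802 at ZT14, 349 and 561 at ZT18, and 505 and 378 at ZT22. Its ZT2 and ZT6 arrays were all above its ZT18 and ZT22 arrays, and its ZT10 arrays fell on both sides. The fitted difference was 0.91 ± 0.26 in log2 with an adjusted p of 0.171 (limma).

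Desmin, which links neighbouring Z-discs, read 5816, 8783 and 8863 at ZT2, 9485 and 8856 at ZT6, 7945 and 8419 at ZT10, 8076 and 8159 at ZT14, 6757 and 7967 at ZT18, and 4882 and 6657 at ZT22. The first ZT2 array and the first ZT22 array were below all the others. Its difference was 0.50 ± 0.17 in log2 (limma, adjusted p = 0.25). Actn2 read 3045, 5035 and 5099 at ZT2, 5177 and 4688 at ZT6, 3347 and 4850.4 at ZT10, 4215 and 4397 at ZT14, 2978 and 3611 at ZT18, and 3200.0 and 2848 at ZT22. Over both days its ZT18 and ZT22 arrays ranged from 2848 to 3611. Its ZT2 and ZT10 arrays lay within that range on day 1 and above it on day 2. Its difference was 0.58 ± 0.20 in log2 (limma, adjusted p = 0.251).

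Of 6 calcium handling genes, 5 were tested and none passed, with differences of 0.18 for Atp2a1 to 0.58 for Trdn. Atp2a1 is the fast calcium pump, Casq1 the calcium-binding protein of the store and Pvalb the calcium buffer parvalbumin. Sarcolipin (Sln), a small inhibitor of the pump, read 125 to 272 and was too dim to be tested. Triadin (Trdn), which couples the store's calcium-binding protein to the release channel, read 4766, 6166 and 6142 at ZT2, 5658 and 5825 at ZT6, 5113 and 5199 at ZT10, 5996 and 5578 at ZT14, 3264 and 3919 at ZT18, and 4439 and 4034 at ZT22. Every ZT18 and ZT22 array was below every other array. Its difference was 0.58 ± 0.16 in log2 with an adjusted p of 0.161 (limma). Trdn was the only member with more than 1 probe set, 19 in all, of which 18 were not used. These 19 correlated with the mean of the other members at r of 0.34 to 0.90 over the 13 arrays. Their median r was 0.66, and the probe set used had 0.82. The ryanodine receptor Ryr1 read 3305, 5367 and 5638 at ZT2, 5172 and 4577 at ZT6, 3597 and 4539 at ZT10, 4999.6 and 4617 at ZT14, 3319 and 4870.4 at ZT18, and 2949.8 and 3215 at ZT22. The first arrays at ZT2, ZT10 and ZT18 and both ZT22 arrays were low, and its difference of 0.38 ± 0.23 had an adjusted p of 0.507 (limma).

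Of 2 myosin kinase genes Mylk4 passed, and Mylk2, the skeletal myosin light chain kinase, did not, with a difference of 0.45 ± 0.21 (limma, adjusted p = 0.387). Of 4 genes of energy and oxygen supply, the creatine kinase Ckm, the muscle enolase Eno3, the glycogen phosphorylase Pygm and the oxygen-binding myoglobin (Mb), none passed, with differences of 0.14 for Ckm to 0.49 for Mb. Myoglobin read 3370.5, 3901 and 4008 at ZT2, 3789.7 and 3614 at ZT6, 2462 and 3933 at ZT10, 2995 and 3082 at ZT14, 2524 and 3101 at ZT18, and 2857 and 2245 at ZT22. Its ZT2 and ZT6 arrays were above all its dark arrays, while the ZT10 arrays lay apart from each other. The fitted difference was 0.49 ± 0.17 in log2 (limma, adjusted p = 0.251).

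Much of the movement of these genes was common to them, and arrays of the same time of day differed in it as well as times of day. With each gene set to its own mean, the average of the 39 was -0.16, 0.19 and 0.26 at ZT2, 0.30 and 0.11 at ZT6, -0.10 and 0.13 at ZT10, 0.17 and 0.13 at ZT14, -0.35 and 0.00 at ZT18, and -0.22 and -0.46 at ZT22, in log2. The ZT2 arrays differed by up to 0.42, against a range of 0.55 between the means of the times of day. On the first ZT6 array 39 of 39 genes were above their own mean, and on the first ZT18 and second ZT22 arrays 0 of 39 were. In such bulk samples, less of a cell type and less RNA per cell cannot be told apart.

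Over the 13 arrays, a gene correlated with the mean of the other members at a median r of 0.90, with Mylk4 lowest at 0.52 and Neb highest at 0.97. Myl1, Tnnc2 and Des followed Mylk4 at the low end, at r of 0.61, 0.72 and 0.75. The median r over the 741 pairs was 0.82, and the first principal component held 71.9% of their variance. All these values share the same arrays and pools. The 10 members with the highest mean signal had SDs over the arrays of 0.083 to 0.21 in log2, with a median of 0.16, and the 10 with the lowest had 0.25 to 0.74, with a median of 0.40. Across the 39 genes, which are not independent, Spearman's rho of mean signal and SD was -0.86. Whether the response of bright probe sets is compressed was not tested.

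**Figure D3:**
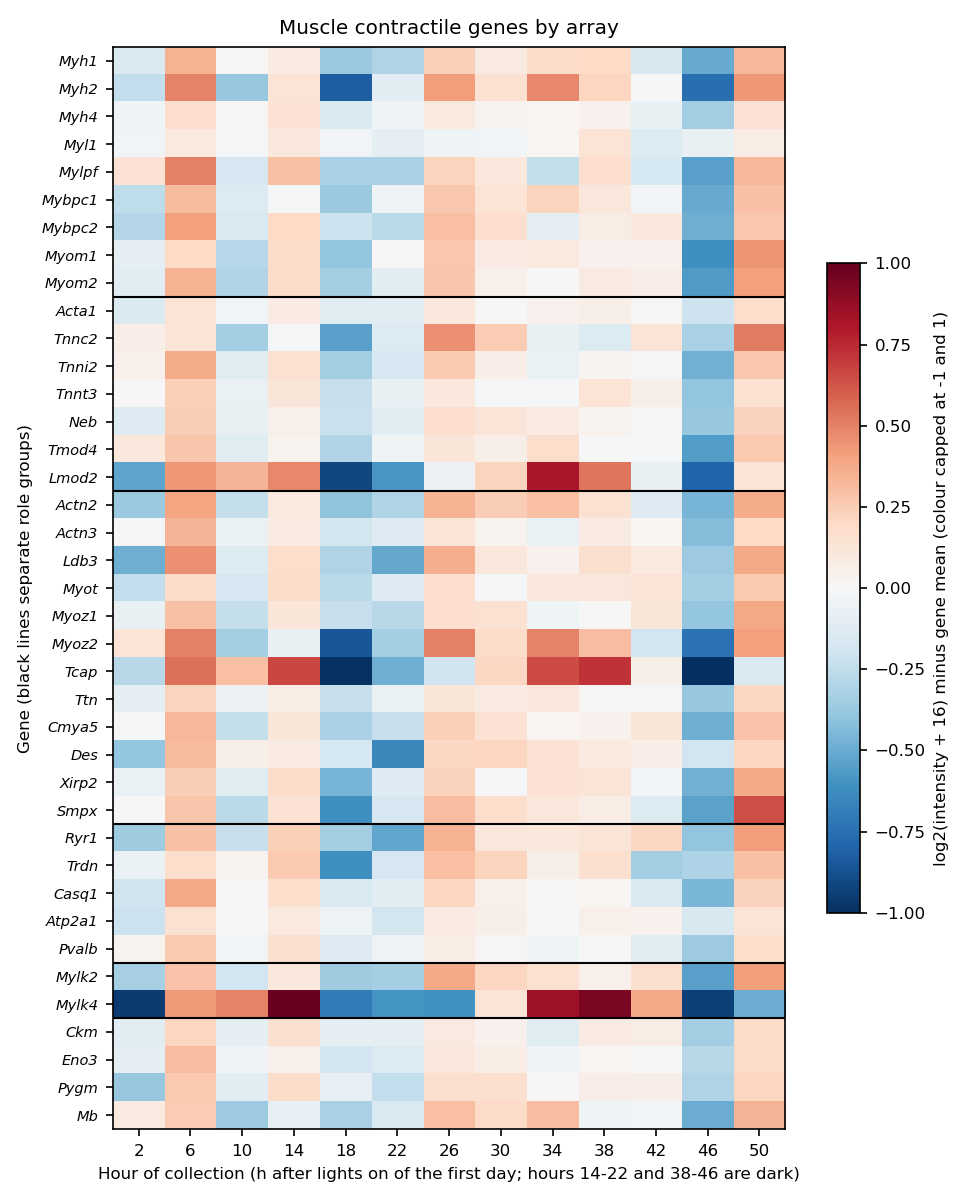
log2(intensity + 16) minus the gene's own mean (colour) for the 39 genes (rows, by role) on the 13 arrays (columns, by hour of collection). Whole columns share a colour, as on the first ZT6 array with 39 of 39 genes above their mean and the first ZT18 array with 0 of 39, while Mylk4, Lmod2 and Tcap stand out in depth of colour.

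To describe each gene's 24 h curve relative to this common movement, the mean of the other 38 members was added to its fit as a covariate. The mean of all 39 itself varied with time of day, from 0.21 at ZT6 to -0.34 at ZT22. For Tnnc2 the covariate also held Mylk4, Lmod2 and Tcap. A curve in this fit is thus relative to the other members and cannot show a rhythm of the gene's own. Mylk4, Lmod2 and Tcap passed again, and Tnnc2 passed with a curve close to opposite in time. Mylk4 kept a difference of 1.62 ± 0.15 in log2 with a peak at 12.7 h (limma, adjusted p = 0.000875). Lmod2 had 0.90 ± 0.14 with a peak at 10.7 h and Tcap 0.97 ± 0.17 with a peak at 11.3 h (limma, adjusted p = 0.0174 and 0.0329). Tnnc2 had 0.53 ± 0.10 with a peak at 0.0057 ± 0.83 h, that is, at lights-on (limma, adjusted p = 0.0422). These 4 of 39 stand against 1.11% to 1.21% of all genes called in the same fits. The other 35 did not pass, and the median difference of the 36 genes that had not passed without the covariate was 0.15, against 0.37 without it.

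The mean of Mylk4, Lmod2 and Tcap minus that of the other 36 was -0.47, -0.52 and -0.47 at ZT2, 0.18 and 0.08 at ZT6, 0.52 and 0.70 at ZT10, 0.62 and 0.65 at ZT14, -0.56 and 0.13 at ZT18, and -0.36 and -0.50 at ZT22. The arrays of a time of day lay close together in this contrast, except at ZT18. These genes were chosen by their fit to the same arrays, so the contrast is a description.

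Upstream sequence was searched for known motifs in every member with an entry. It is printed below for Mylk4 and Lmod2, for the member with the most matches and for the member with the clock E-box. RefSeq windows of 250 bases before the start site (build GRCm38.p6) were found for 29 of the 40 genes, in 33 windows. Tcap had no entry. Both strands were searched. The E-box CAGCTG, the form bound by muscle factors such as MyoD, was in 14 of the 33 windows (42.4%), against 13% of all 32851 windows, and in the windows of 13 genes. The nuclear receptor motif AGGTCA was in 7 windows (21.2%, against 14%), and the TATA box TATAAA in 4 (12.1%, against 12.4%). The MEF2 core TATTTATA was in 2 (6.06%, against 1.56%), those of Myh1 and Myh4. Its letters include TATAAA as read on the other strand, so every TATTTATA match also counts as a TATAAA match. The clock E-box CACGTG was in 1 window (3.03%, against 6.02%), that of Actn2, which holds it at 2 positions. The D-box TTATGTAA was in 0 windows, against 0.819% of all. CAGCTG and CACGTG read the same on both strands. A match of letters is a description and not a binding site, and no binding was measured here.

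The windows below run 5′ to 3′ on the gene's strand, with matches in capitals. The window of Mylk4 (chr13:32783965-32784214, minus strand) holds CAGCTG and, as TGACCT, the reverse complement of AGGTCA. That of Lmod2 (chr6:24597521-24597770, plus strand) holds none of the motifs searched. Myh4 (chr11:67237562-67237811, plus strand) is shown for its CAGCTG, TATTTATA and TATAAA matches. Actn2 (chr13:12340733-12340982, minus strand) is shown as the window with CACGTG.
Mylk4: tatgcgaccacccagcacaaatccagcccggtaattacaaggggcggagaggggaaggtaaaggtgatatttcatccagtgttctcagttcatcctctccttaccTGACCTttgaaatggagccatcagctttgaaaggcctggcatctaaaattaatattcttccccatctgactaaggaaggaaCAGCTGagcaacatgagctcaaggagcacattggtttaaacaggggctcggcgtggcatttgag
Lmod2: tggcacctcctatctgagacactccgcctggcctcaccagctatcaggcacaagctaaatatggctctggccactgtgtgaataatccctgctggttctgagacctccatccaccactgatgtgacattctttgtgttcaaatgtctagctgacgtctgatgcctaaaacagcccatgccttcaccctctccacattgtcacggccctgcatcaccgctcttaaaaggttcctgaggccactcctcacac
Myh4: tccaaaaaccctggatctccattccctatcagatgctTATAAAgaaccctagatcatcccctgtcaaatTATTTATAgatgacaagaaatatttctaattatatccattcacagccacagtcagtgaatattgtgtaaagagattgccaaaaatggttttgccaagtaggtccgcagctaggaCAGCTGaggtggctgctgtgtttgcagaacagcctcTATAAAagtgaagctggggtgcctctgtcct
Actn2: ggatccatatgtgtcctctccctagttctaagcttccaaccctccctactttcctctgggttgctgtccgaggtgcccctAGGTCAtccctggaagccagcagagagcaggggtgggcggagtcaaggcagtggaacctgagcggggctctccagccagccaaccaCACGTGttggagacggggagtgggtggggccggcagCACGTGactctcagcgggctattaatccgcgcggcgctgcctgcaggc

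The second comparison set the dark phase against the light phase. None of the 39 genes passed, where 0.0201% of all genes did (3 genes). Of the 39, 38 had a lower mean in the dark, against 59.9% of all genes, and the median difference was -0.22 in log2, against -0.02 over all genes. As the genes moved together, 38 of 39 is not a count of independent genes. At an unadjusted p under 0.05, 13 were lower in the dark (Myh1, Mybpc1, Tnnc2, Tnni2, Neb, Tmod4, Actn2, Myoz2, Ttn, Smpx, Trdn, Eno3 and Mb), against 8.28% of all genes in either direction. The exception in direction was Mylk4, at 0.05 ± 0.38 (limma, adjusted p = 0.976).

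Myoz2 had the largest difference, with 349, 533 and 802 as the lowest, median and highest of the 6 dark arrays, against 505, 857 and 918 for the 7 light arrays. The dark and light ranges overlapped, and the difference was -0.58 ± 0.18 in log2 (limma, adjusted p = 0.441). Myoglobin read 2245, 2926 and 3101 in the dark and 2462, 3789.7 and 4008 in the light, as lowest, median and highest. Its light arrays were all above the highest dark array except ZT10 replicate 1, and the difference was -0.35 ± 0.11 (limma, adjusted p = 0.468). Myh1 read 3794, 4586 and 6193 in the dark and 4885, 6126 and 6879.7 in the light. The high dark values of Myh1 were those of ZT14, and its difference was -0.33 ± 0.12 (limma, adjusted p = 0.515).

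For 0 of the 39 were the ranges of dark and light apart, as they were, lower in the dark, for 0.241% of all genes. By role, the median difference was -0.22 for thick filament and M-band genes, -0.26 for thin filament genes, -0.24 for Z-disc, titin and intermediate filament genes, -0.21 for calcium handling genes, -0.12 for the myosin kinases and -0.13 for energy and oxygen supply genes. The mean of the 39 averaged -0.12 ± 0.26 over the dark arrays and 0.10 ± 0.17 over the light arrays (SD, n = 6 and 7). Without the ZT22 array with the high hair shaft genes, 38 of 39 were lower in the dark and 5 had an unadjusted p under 0.05. Without ZT2 replicate 1 these counts were 39 and 19. The number at that level was 5 with quantile normalization and 8 with the arrays shifted to 1 median. The share of all genes at that level was not counted in these settings, so these counts have no background beside them.

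The third comparison set day 2 against day 1 within time of day. None of the 39 genes passed, where 0% of all genes did, and 0 had an unadjusted p under 0.05, where 6.46% of all genes did. Means were higher on day 2 for 28 of the 39, against 52.9% of all genes, with a median of 0.07 in log2, against 0.01 over all genes. The largest were those of Myoz2 (0.25 ± 0.16), Myh2 (0.24 ± 0.20), Ryr1 (0.24 ± 0.12), Lmod2 (0.23 ± 0.14), Actn2 (0.21 ± 0.12) and Des (0.21 ± 0.09), and the limma adjusted p of each was 0.604 or above. Myoz2 read 378 to 916 with a median of 766 on day 2, against 349 to 918 with a median of 557 on day 1. Ryr1 read 3215 to 5367 with a median of 4597 on day 2, against 2949.8 to 5172 with a median of 3458 on day 1. The ranges of the days overlapped in both genes. The count of genes higher on day 2 moved between 20 and 34 when single arrays were left out. It was 34, with 4 at an unadjusted p under 0.05, without either ZT6 or either ZT22 array, including the one with the high hair shaft genes. It was 20, with 0 at that level, without ZT2 replicate 1 or ZT2 replicate 2, and 29, with 2, without either ZT14 array. For these fits the share of all genes at that level was not counted. With time of day as a block, an array left without its partner of the other day adds nothing to the day difference. Both arrays of a time of day therefore give the same counts, which do not single out either.

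Whether the 24 h curve differed between the days was tested as an interaction. None of the 39 genes passed (0% of all genes did), and 0 had an unadjusted p under 0.05, against 12.8% of all genes. The lowest adjusted p among the 39 was 0.439 (limma).

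**Figure D4:**
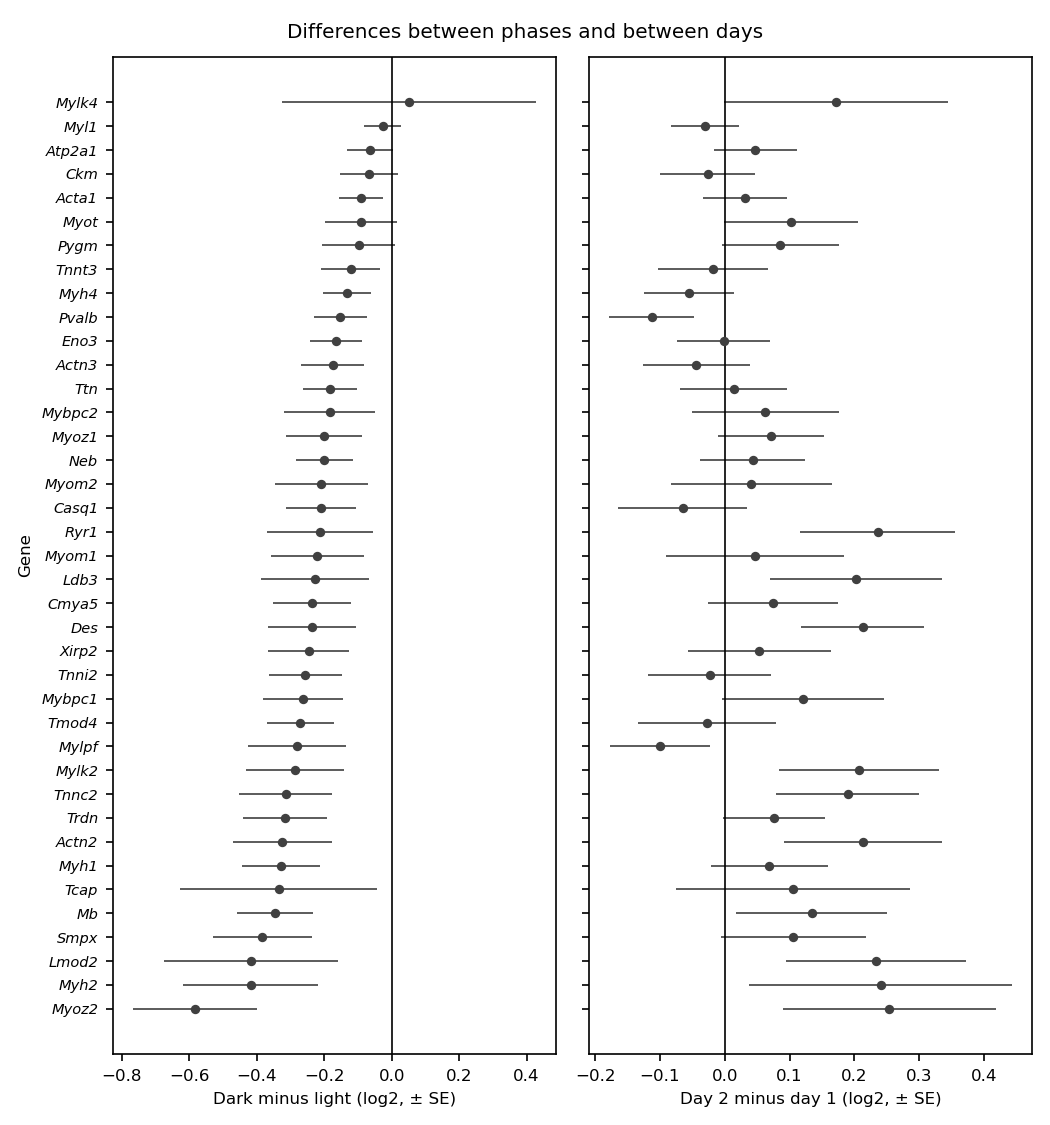
Dark minus light (left) and day 2 minus day 1 (right) in log2 (horizontal axes, ± SE) for the 39 genes (vertical axis, ordered by dark minus light). On the left 38 of 39 points lie below 0 and Mylk4 lies at 0.05 with a wide error, and on the right 28 of 39 lie above 0.

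Other muscle genes outside the 40 were set beside them by lists of known function. Of 18 other sarcomere and Z-disc genes tested, 15 other triad and membrane genes, 13 muscle enzymes and mitochondrial forms and 9 genes of muscle protein turnover, none passed the 24 h test. The genes lower in the dark numbered 17 of 18, 15 of 15, 13 of 13 and 9 of 9, against 59.9% of all genes. None of these differences passed. These are not counts of independent genes, as the lists share the arrays and pools of the members and moved with them. The array means of these lists had r of 0.95 to 0.96 with the mean of the members over the 13 arrays. Their lowest p in the 24 h test belonged to Art1, an ADP-ribosyltransferase of muscle, at 0.77 ± 0.18 in log2 (limma, adjusted p = 0.098).

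Lists of other muscle types had lower r with the members, developing muscle the highest of them. The mean of 10 slow fibre genes had r of -0.26 with them, 2 of the 10 were lower in the dark and none passed the 24 h test. Several of the 10 were dim, such as Myh7 (157 to 341) and Tnnc1 (245 to 369), against 125 to 272 for the untested Sln. How far dim signal set this r was not tested. Within that list Casq2, a calcium-binding protein of the store in slow fibres and heart, had an r of 0.62 and Atp2a2, the calcium pump that many cell types use, an r of -0.64. Smooth muscle (9 genes) had r of 0.46, heart muscle (5 tested of 8) -0.05, developing muscle (6 genes) 0.80 and satellite cells and muscle factors (6 tested of 8 measured) 0.76, and none of their genes passed. Single genes within the last 2 lists differed. Mef2c, a muscle transcription factor, had an r of 0.85, against 0.28 for Myod1 and 0.15 for Pax7. Chrna1, the acetylcholine receptor subunit of the muscle endplate, had 0.95, against 0.34 for Myh3 and -0.16 for Chrng of the developing muscle list.

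Markers of other cells of the skin were read on the same arrays. The r of their means with the members was 0.02 for dermal fibroblasts (6 genes), -0.11 for adipocytes (8 genes), -0.51 for keratinocytes (7 genes), 0.35 for endothelium (5 genes), 0.23 for immune cells (5 genes) and 0.16 for nerve and Schwann cells (3 genes). The fibroblast mean ranged from -0.06 to 0.12 in the dark and from -0.41 to 0.13 in the light, in log2. The adipocyte mean ranged from -0.09 to 0.31 in the dark and from -0.25 to 0.13 in the light. The keratinocyte mean ranged from -0.08 to 0.08 in the dark and from -0.08 to 0.04 in the light. Their part in the common movement of the muscle genes was not tested. Hair shaft genes had r of -0.55, with the high ZT22 array among the points.

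**Figure D5:**
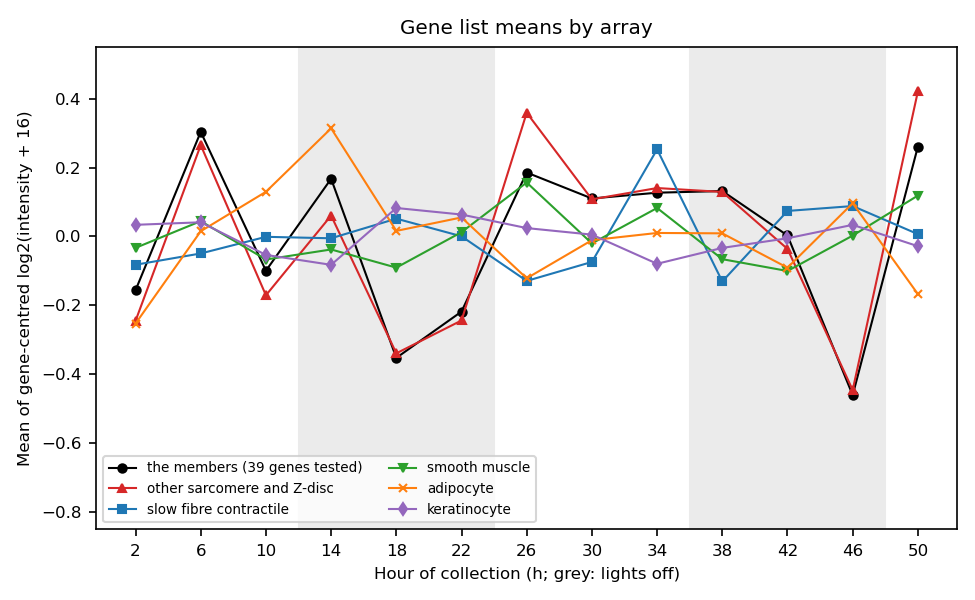
Mean of gene-centred log2(intensity + 16) (vertical axis) at each hour of collection (horizontal axis, h; grey for lights off) for the 39 genes tested, other sarcomere and Z-disc genes, slow fibre genes, smooth muscle genes, adipocyte and keratinocyte markers. The first pair of lines runs together between -0.46 and 0.42, and the slow fibre and keratinocyte lines stay between -0.13 and 0.25.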

How the data were processed

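The deposited intensities are linear probe set values that the authors made with Affymetrix Expression Console 1.1.1 and PLIER 2.0, per the submitters' processing notes. How arrays were normalized against each other, and which build and annotation were used, is not given in the sources used here. Of 35557 probe sets, 21789 map to a single gene, 1621 to several and 12147 to none in the annotation at hand, and the brightest on average was kept for each of 19938 genes. On the scale of log2(intensity + 16), the dimmest 25% of genes were dropped. The remaining 14953 were tested with limma 3.58.1 (R 4.3.3), with Benjamini-Hochberg adjustment over all of them at 0.05. The 24 h F test took cosine and sine terms together with 10 residual degrees of freedom, and the day test had time of day as a block. Scripts were tested on simulated data. The number of arrays limits the precision. Replicates are separate pools, numbered by day.

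The members and gene lists were chosen with earlier results of these data known. Values on every array are given for members called in any test, for the 10 with the smallest p in the 24 h test and the 6 with the largest day difference. Up to 3 genes of each other list with the smallest p, and the 10 genes outside the members with the highest r with their mean, may also be named. Myh7, Myh6, Myl7, Nppa, Myf5 and Myog were added after their values were seen, as defining markers. Alternatives changed the offset, filter, normalization, probe set, form of the rhythm, day block, covariate and arrays.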

Additional observations from a re-analysis of the deposited data

Results flagged for a closer look

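Groups of arrays were formed for each tested member, and for the mean of the members, in dark and in light. In 3 of the 80 groups the lowest array lay apart from the others, where about 1 in 20 groups is flagged by chance. The measure was Dixon's ratio, the gap to the nearest array over the whole range, set against its critical value for that number of arrays. Desmin (Des) was low at ZT2 replicate 1 in the light, with a ratio of 0.638, at 5816 against 7945 to 9485 on the other light arrays. Atp2a1 was low on the same array, with a ratio of 0.583, at 13069.7 against 15155.5 to 16845. Myoglobin (Mb) was low at ZT10 replicate 1, with a ratio of 0.644, at 2462 against 3370.5 to 4008.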

How the results depend on the processing

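The count of members called for the 24 h curve was 3 with both other offsets, both other filters, quantile normalization, arrays shifted to 1 median and the mean of probe sets. It was 2 with day as a block, where Tcap had an adjusted p of 0.0545 (limma), and 4 with the mean of the other members as covariate. With time of day as a factor it was 0, with adjusted p of 0.065 for Mylk4, 0.196 for Lmod2 and 0.174 for Tcap (limma), and that fit called 44 genes of 14953. Leaving out each array in turn gave 1 to 3 members, the 1 being Mylk4 without ZT10 replicate 2. Over all genes these fits called 126 to 414, against 318 with all arrays. The count of members lower in the dark was 38 or 39 in these settings and 25 of 39 with the covariate. Leaving out each array gave 38 to 39. For the day difference and the interaction, 0 members passed in each setting run, as for dark minus light. The count at an unadjusted p under 0.05 in dark minus light was 13. It was 2 with the covariate, and with single arrays left out it ranged from 4 without ZT18 replicate 1 to 23 without ZT14 replicate 1. The share of all genes at that level was counted in the main fit alone. Where leaving out 1 array gave 39 of 39, Mylk4 was lower in the dark too, against 0.05 higher with all arrays. Without the last ZT2 array the day comparisons are unchanged by construction, since they do not use it. The cause of these changes was not tested. The labels give hours and no replicate numbers, and the fits with day or time of day as a block stand in for a pairing. Sln was left out by the brightness filter, and no measure of background was used.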

Other observations

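The genes outside the 40 whose log2 values followed the mean of the members most closely over the 13 arrays were mostly other genes of striated muscle. Nrap, a protein of the muscle tendon junction and of growing myofibrils, was first with an r of 0.99, followed by Mlip at 0.98 and Tmod1, a thin filament capping protein, at 0.97. Dtna, Mypn, Alpk3, Chrna1, Abcc9, Srl and Slc25a12 had r of 0.95 to 0.96. Mypn binds nebulin and alpha-actinin at the Z-disc, and Srl is sarcalumenin, a calcium-binding protein of the sarcoplasmic reticulum. None of these 10 passed the 24 h test, with adjusted p of 0.181 to 0.370 (limma). Their values share the arrays and pools of the members, and the correlations are given as a description.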
